A study of Mus musculus with 12 samples.

Results

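The miR-130/miR-301 family comprised 4 mature mouse microRNAs on the array: miR-130a (probe set mmu-miR-130a_st), miR-130b (mmu-miR-130b_st), miR-301a (mmu-miR-301a_st) and miR-301b (mmu-miR-301b_st). They were 4 of the 1412 mouse probe sets and 4 of the 717 that stand for mature strands. The members were taken by name, as the plain strands, and no other probe set met that rule. The family was selected on measured values of these same arrays, since earlier results were known when it was chosen, among them the level of miR-130b after 10 h of treatment. Its levels over time are therefore given as a description with no p-value. The members were part of the fit over all probe sets, and its calls of them are counted for scale only.

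The samples were NIH3T3 cells, an immortalised mouse embryonic fibroblast line, grown in medium with 10% fetal bovine serum and treated while proliferating and not synchronised. Untreated cells (0 h) were set against cells given 2 μg/ml tunicamycin for 2, 5 or 10 h, with 3 arrays at each of the 4 time points and 12 in all. Tunicamycin blocks N-linked glycosylation in the endoplasmic reticulum (ER), and the misfolded proteins that follow trigger the unfolded protein response. There were no untreated arrays at 2, 5 or 10 h, so treatment and time in culture cannot be told apart. The labels number the arrays of a time point but do not say that they came from separate cultures, so the spread between them, and every p-value built on it, may be technical.

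A microRNA guides the silencing complex to messenger RNAs mainly through its bases 2 to 8, the seed, and microRNAs with 1 seed are grouped as a family because they can bind the same sites. The miR-130/miR-301 family is known for repressing PPARG, the nuclear receptor that drives adipocyte formation. In fibroblasts and smooth muscle cells the family is known as a regulator of matrix and proliferation programmes.

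The mature sequences are shown because the seed is what defines the family. They were taken by name from RefSeq (mouse build GRCm38.p6), as the 3p strands for which the older plain names stand. The table matched 3 of the 4 members, and miR-721, which carries the same seed but was left out by the naming rule. Capitals mark bases 2 to 8.
mmu-miR-130a-3p: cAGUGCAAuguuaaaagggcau
mmu-miR-130b-3p: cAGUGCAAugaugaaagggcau
mmu-miR-301a-3p: cAGUGCAAuaguauugucaaagc
mmu-miR-721: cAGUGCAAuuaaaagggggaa

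The strands lay at chr2:84741116-84741137 on the minus strand for miR-130a, chr16:17124071-17124092 on the minus strand for miR-130b, chr11:87113054-87113076 on the plus strand for miR-301a and chr5:136375777-136375797 on the minus strand for miR-721. The seed AGUGCAA was held by 7 of the 1679 mature mouse names in the table (0.417%). Of the strands printed above, those of miR-130a and miR-130b were the closest pair. They shared 20 of 22 bases and differed by U11A and A13G, counted from 1 at the 5′ end with the base of miR-130a first. A probe for either strand may therefore also take up the other, and the deposited values do not separate such binding. The table held no strand of miR-301b, so it entered neither the seed count nor this comparison. Whether its probe takes up another member, such as miR-301a, could not be judged.

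The members came from 3 places in the genome. The hairpins of miR-130b (chr16:17124061-17124142) and miR-301b (chr16:17124400-17124496) lay 257 bases apart on the minus strand, within the bounds of 2610318N02Rik. The hairpin of miR-301a (chr11:87113004-87113089) lay within the bounds of Ska2, and that of miR-130a (chr2:84741115-84741178) within those of no other annotated gene. No transcript of these loci was measured here other than by the hairpin probe sets described below.

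All 4 members lay above the background limit on all 12 arrays. That limit was set per array at the mode of the log2 values plus 3 times the spread below the mode, and ran from 2.95 to 3.21. The mature probe sets had medians of 3.40 to 3.65, and 52.2% to 55.9% of them lay above the limit. Replicate 2 of 0 h and replicate 2 of 5 h stood apart. On these arrays 15.3% and 17.3% of the mature probe sets lay at least 0.5 (log2) from the mean of the other arrays of that time, against 5.58% to 11.3% on the other arrays. The cell type label was checked on fixed markers, and all 8 fibroblast microRNAs of the list, such as miR-199a-3p, miR-214 and miR-145, lay above the limit on every array, with a summed linear level of 68000 to 71800. Of 7 epithelial microRNAs, the miR-200 group with miR-203 and miR-205, 2 lay above the limit on all 0 h arrays and none on any 5 h or 10 h array. Their summed linear level was 800 to 875 on the untreated arrays and 69.3 to 91.1 after 2 h. It was 24.3 to 25.9 after 5 h and 23.9 to 28.1 after 10 h. Their part in the results below was not tested. Of the blood markers 0 of 6, of the endothelial markers 0 of 2 and of the liver markers 0 of 1 lay above the limit on all arrays of any time, against 1 of 4 muscle markers at every time and 2 of 3 neural markers up to 5 h and 1 at 10 h.

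MiR-130b stepped up from 2 h to 5 h and again to 10 h. Its deposited log2 level was 8.88, 8.74 and 8.96 on the 0 h arrays and 8.77, 8.57 and 8.80 on the 2 h arrays. The 5 h arrays read 9.05, 9.15 and 9.08, and the 10 h arrays 9.55, 9.57 and 9.47. The 0 h and 2 h arrays overlapped, every 5 h array lay above all of them, and every 10 h array lay above every 5 h array. The means were 8.86 ± 0.11, 8.71 ± 0.13, 9.09 ± 0.05 and 9.53 ± 0.05 (log2, SD, n = 3 each).

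**Figure D1:**
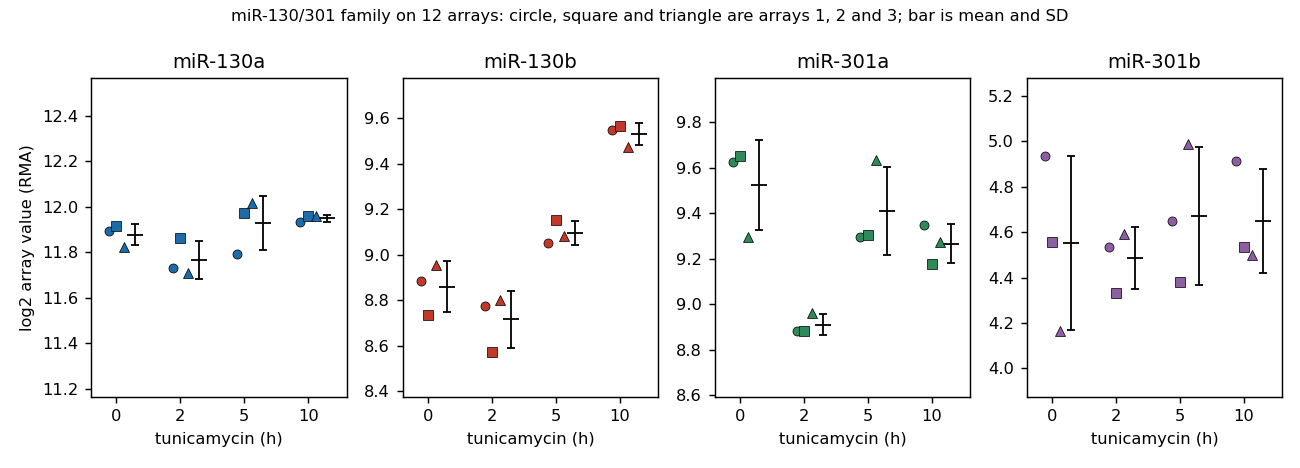
Deposited log2 level (vertical axis, RMA) of each family member on each of the 12 arrays by hours of tunicamycin (times drawn evenly spaced), 1 panel per microRNA. Points are arrays, bars are the mean ± SD of 3 arrays, and every panel spans the same number of log2 units; miR-130b runs from 8.57 at 2 h to 9.57 at 10 h, and miR-301a has its 3 lowest arrays at 2 h.

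On the log2 scale the fitted differences of miR-130b from 0 h were -0.14 at 2 h, 0.24 at 5 h and 0.67 at 10 h (SE 0.076 each). The last equals a linear ratio of 1.59, and 9 of the 717 mature probe sets had a larger difference from 0 h to 10 h. Between later times it was 0.38 higher at 5 h than at 2 h and 0.44 higher at 10 h than at 5 h. From 2 h to 10 h the difference was 0.82, a linear ratio of 1.76. Without the second 0 h and the second 5 h array, a setting added after the data were seen, the differences of miR-130b from 0 h were -0.20, 0.15 and 0.61.

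MiR-301a had its lowest levels at 2 h. It is known in human tumour cells for repressing NKRF, an inhibitor of NF-kappa-B signalling. Its log2 level was 9.62, 9.65 and 9.30 before treatment and 8.88, 8.88 and 8.96 after 2 h. Later it was 9.29, 9.31 and 9.63 (5 h) and 9.35, 9.18 and 9.27 (10 h). All 2 h arrays lay below every other array, whereas the 0 h, 5 h and 10 h arrays overlapped. The means were 9.52 ± 0.20, 8.91 ± 0.05, 9.41 ± 0.19 and 9.27 ± 0.09 (log2, SD, n = 3 each).

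The fitted difference of miR-301a from 0 h was -0.61 at 2 h (log2, SE 0.10), a level 1.53 times lower. Of the 717 mature probe sets 29 had a more negative difference, a larger fall. At 5 h the difference was -0.11 and at 10 h -0.26. It was 0.50 higher at 5 h than at 2 h. The third 0 h array was the lowest of its group at 9.30. Without it the 10 h difference was -0.37, and without the second 0 h and 5 h arrays the 5 h difference was 0.00.

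MiR-130a kept the narrowest range over the 12 arrays. It is known in human endothelial cells for repressing the homeobox genes GAX and HOXA5. Its log2 level was 11.89, 11.91 and 11.83 before treatment and 11.73, 11.86 and 11.71 after 2 h. Later it was 11.79, 11.97 and 12.02 (5 h) and 11.93, 11.96 and 11.96 (10 h). The 10 h arrays lay above all 0 h and 2 h arrays, and the 5 h arrays overlapped every other group.

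The 12 values of miR-130a spanned 0.31 on the log2 scale, against 0.99 for miR-130b. The means were 11.88 ± 0.05, 11.77 ± 0.08, 11.93 ± 0.12 and 11.95 ± 0.02 (log2, SD, n = 3 each). The fitted differences from 0 h were -0.11, 0.05 and 0.07 (SE 0.055 each), and 10 h was 0.18 above 2 h. When all arrays were moved to a common median, the difference between 10 h and 0 h was 0.16.

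MiR-301b, the neighbour of miR-130b, lay closest to the background limit and had the largest SD within times of the members. Its log2 level was 4.93, 4.56 and 4.17 before treatment and 4.53, 4.33 and 4.59 after 2 h. Later it was 4.65, 4.38 and 4.99 (5 h) and 4.91, 4.53 and 4.50 (10 h). All groups overlapped, and the 0 h arrays alone spanned most of the range of the 12. The fitted differences from 0 h were -0.06, 0.12 and 0.10 (SE 0.25 each), each below its SE. Their sign changed when single arrays were left out, where the 2 h difference ran from -0.26 to 0.13, that of 5 h from -0.07 to 0.31 and that of 10 h from -0.10 to 0.29. The within-time SD of miR-301b was 0.279 against 0.091 for miR-130b. The step of miR-130b from 0 h to 5 h, 0.24, is below the SE of 0.25 of miR-301b. A step of that size could thus not be told from the spread of miR-301b with 3 arrays. Whether a larger step could be was not tested.

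Read side by side, the members did not share 1 time course. The mean was lowest at 2 h for all 4, as it was for 176 of the 717 mature probe sets (24.5%) and for 92 of the 336 above the limit on all arrays (27.4%). For miR-301b that order did not hold under quantile normalization, where the 2 h difference was 0.09. After 2 h miR-130b went on to its highest mean at 10 h, miR-301a came back toward but not above its 0 h mean, and miR-130a and miR-301b stayed within 0.12 of theirs. The median of the 4 differences from 0 h was -0.13, 0.09 and 0.09 for 2, 5 and 10 h, beside 0.03, 0.03 and 0.02 over all 717.

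**Figure D2:**
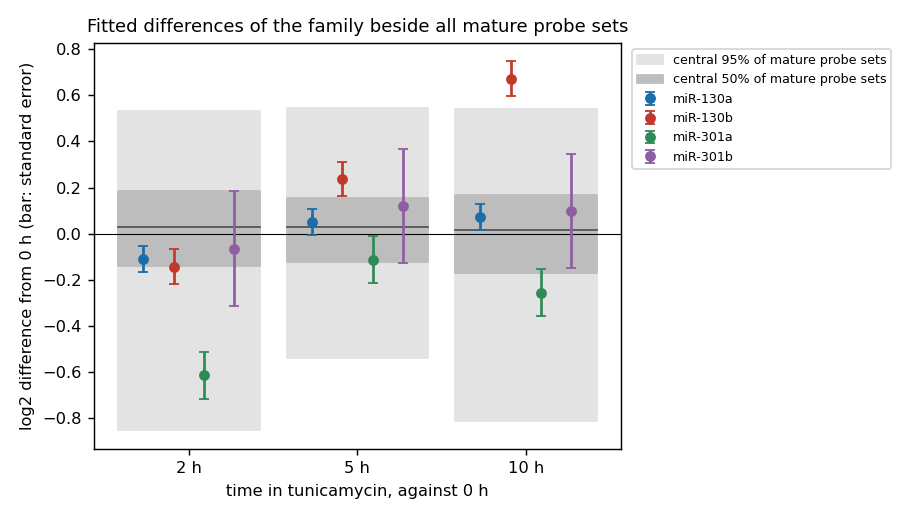
Fitted log2 difference from 0 h (vertical axis) of the 4 members at 2, 5 and 10 h of tunicamycin, each point with its SE, over bands that hold the central 50% and 95% of the 717 mature probe sets. MiR-301a at 2 h (-0.61) and miR-130b at 10 h (0.67) lie farthest from 0.

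Counts of the members are given against the same counts over all 717 mature probe sets, for scale only, because the family was chosen with these values known, and they support nothing. The limma fit with Benjamini-Hochberg adjustment called 1 of the 4 members at 2 h (miR-301a, lower), none at 5 h and 1 at 10 h (miR-130b, higher). Over all mature probe sets it called 13.2% at 2 h, 8.37% at 5 h and 12.7% at 10 h. The 3 arrays of a time did not overlap the 3 arrays of 0 h for 1 member at 2 h, 1 at 5 h and 2 at 10 h, beside 30.1%, 21.5% and 28% of all. Between treated times the fit called 2 members from 2 h to 5 h, where it called 10.7% of all and 5.86% higher. From 5 h to 10 h it called 1 member (5.58% of all, 1.81% higher), and from 2 h to 10 h it called 3 (10.9% of all, 5.72% higher). Each of these members was higher at the later time. Non-overlapping arrays were found there for 2, 1 and 3 members, beside 25.4%, 18.4% and 29.1% of all. The differences from 0 h share the 0 h arrays and those from 2 h the 2 h arrays. With 3 arrays against 3, an exact two-sided permutation test of a single microRNA cannot give a p below 0.1.

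As a description over the 12 arrays, which share their time groups, Pearson's r between members was highest for miR-130a with miR-301a (0.615) and with miR-130b (0.556). It was 0.516 for miR-301a with miR-301b and lowest for miR-130b with miR-301a (0.198). The neighbours miR-130b and miR-301b had an r of 0.238. With the time means removed, miR-301a and miR-301b had an r of 0.825 and miR-130a and miR-130b one of -0.41. Arrays of 1 time that were high in miR-301a were thus mostly high in miR-301b. MiR-301a read far higher, with a mean of 9.28 (log2) over the 12 arrays against 4.59. Binding of either strand by the probe for the other was not tested.

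For each member the 3 mature probe sets with the most similar profile over the 12 arrays were drawn from 332 candidates above the limit on all arrays. MiR-130b was most like miR-17*, the passenger strand of miR-17 (r = 0.962), followed by miR-708 (0.898), which in mouse cells is made from Odz4 under control of the ER stress factor CHOP, and miR-182 (0.883). On the log2 scale the 10 h differences from 0 h were 0.33 for miR-17*, 1.07 for miR-708 and 0.12 for miR-182. A high r is a likeness of shape and not of size, and the shapes differ too: at 2 h miR-708 was 0.17 above 0 h while miR-130b stood at -0.14.

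MiR-301a was most like miR-29b (r = 0.939), a repressor of collagen genes, then miR-19b (0.923) of the miR-17-92 cluster and miR-30a (0.899). Their 2 h differences from 0 h were -0.76, -0.52 and -0.34 (log2), the low 2 h point that miR-301a also has. MiR-130a was most like miR-1895 (0.876), miR-188-5p (0.835) and miR-483 (0.805). No profile came near that of miR-301b, for which the highest r were 0.654 with miR-763, 0.631 with miR-711 and 0.619 with miR-713.

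**Figure D3:**
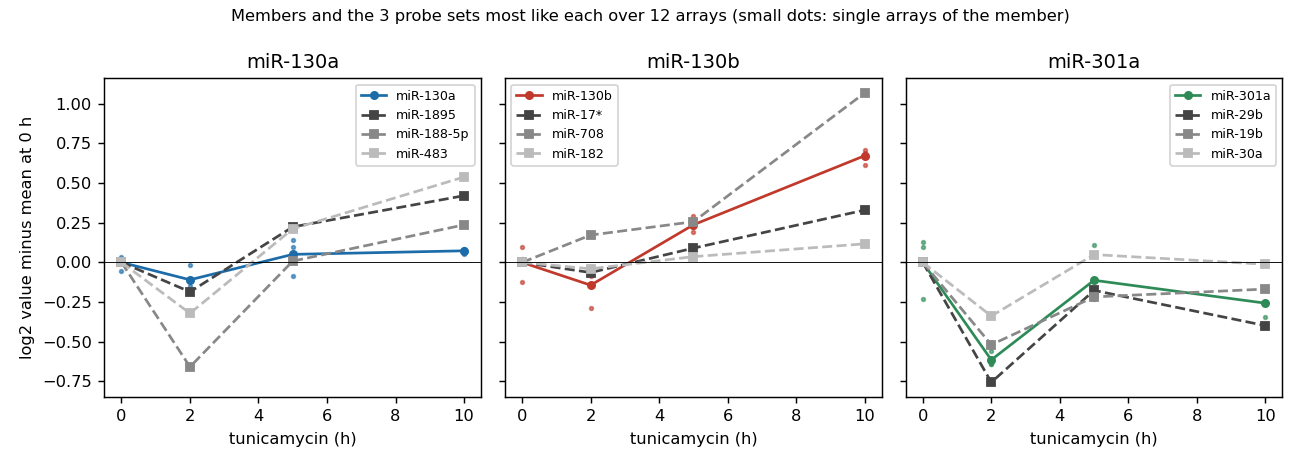
Mean log2 value minus the mean at 0 h (vertical axis) against hours of tunicamycin for miR-130a, miR-130b and miR-301a (solid lines, with small dots for single arrays) and the 3 mature probe sets with the highest Pearson r to each over 12 arrays (dashed lines). MiR-708 starts upward at 2 h and ends at 1.07, miR-130b dips to -0.14 first and ends at 0.67, and the curves of the miR-301a panel share their low point at 2 h.

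The probe sets closest to the family that the rule did not use were tested. These 9 were miR-721, the passenger strand miR-130b*, and 7 probe sets for the hairpins of miR-130a, miR-130b, miR-301a, miR-301b and miR-721. None was called at 2, 5 or 10 h against 0 h (limma, Benjamini-Hochberg; lowest adjusted p = 0.64, 0.76 and 0.45). None had an unadjusted p below 0.05 by limma or by the methods' t-test. Of the 690 hairpin probe sets 0% were called at any of these times.

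MiR-721, with the family's seed, lay below the limit on all 12 arrays, between 1.54 and 2.47. The passenger strand miR-130b* comes from the same hairpin as miR-130b. Its log2 level averaged 2.59 ± 0.09 at 0 h and 2.99 ± 0.49 at 10 h (SD, n = 3 each), and it passed the limit on 1 array at 2 h and 1 at 10 h. The 10 h difference was 0.40 (SE 0.29, limma adjusted p = 0.45), too uncertain at this signal to be set beside the step of miR-130b.

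The hairpin probe set of miR-130b lay below the limit on all arrays, and its 10 h difference from 0 h was 0.25 (log2, SE 0.14, limma adjusted p = 0.70). Of the 2 probe sets for the hairpin of miR-130a, the plain one had means of 2.89 to 3.05 (log2). It passed the limit on only 1 array, at 5 h. The further one, marked x, was the only relative above the limit on every array, so the 2 differ on whether this hairpin was measured. The x probe set had means of 4.41 ± 0.45, 4.47 ± 0.13, 4.77 ± 0.20 and 4.65 ± 0.09 (log2, SD, n = 3 each). Its differences from 0 h were 0.06, 0.36 and 0.24 (SE 0.18 each, limma adjusted p = 0.97, 0.76 and 0.76).

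Some microRNAs outside the family have seeds that overlap that of the family when shifted by 1 base. Whether they bind the same sites was not tested. A list of 5 such microRNAs was used, and their sequences are shown for the shared run. Capitals again mark bases 2 to 8.
mmu-miR-148a-3p: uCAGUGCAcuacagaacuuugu
mmu-miR-148b-3p: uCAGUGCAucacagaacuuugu
mmu-miR-152-3p: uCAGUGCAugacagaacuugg
mmu-miR-19a-3p: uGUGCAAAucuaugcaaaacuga
mmu-miR-19b-3p: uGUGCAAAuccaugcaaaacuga
The strands of miR-148a, miR-148b and miR-152 share the run AGUGCA with the family's seed and the miR-19 strands the run GUGCAA, 6 bases each.

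The list of 5 was written with earlier results of these arrays known, so its counts and p-values are not independent evidence. Against 0 h, the calls among these seed relatives were all for lower levels. Of the 5, 2 were lower and none higher at 2 h, 1 lower and none higher at 5 h, and 1 lower and none higher at 10 h (limma, Benjamini-Hochberg). Over all mature probe sets 5.86%, 4.04% and 7.11% were called lower at those times, and 7.39%, 4.32% and 5.58% higher. The 2 h calls were miR-19a and miR-19b, of 1 cluster, and the 5 h call was miR-19b, so they are not independent. The median difference of the list was -0.42, -0.22 and -0.36 (log2). MiR-148a lay below the limit at all times, and the medians at 2 h and 10 h were its own values. Over the 4 others the medians were -0.33, -0.19 and -0.28 (log2), a value added after the data were seen.

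MiR-19b, which like miR-19a belongs to the miR-17-92 cluster, had a mean of 12.37 ± 0.09 at 0 h, 11.85 ± 0.07 at 2 h, 12.15 ± 0.08 at 5 h and 12.20 ± 0.11 at 10 h (log2, SD, n = 3 each). It fell by 0.52 at 2 h (SE 0.061, limma adjusted p = 3.8e-05) and was 0.22 lower at 5 h (adjusted p = 0.04). The 10 h difference was -0.17 (adjusted p = 0.095). MiR-19a fell by 0.62 at 2 h (SE 0.16, limma adjusted p = 0.022). MiR-148b, a repressor of DNA methyltransferases with its relatives, fell by 0.42 at 10 h (SE 0.12, adjusted p = 0.023). Of 23 alternative settings, 12 ended the 5 h call of miR-19b, 8 the call of miR-19a and 7 that of miR-148b. The 2 h call of miR-19b held in all 23. MiR-152 had differences of -0.14, -0.02 and -0.12 (adjusted p = 0.087, 0.90 and 0.17).

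**Figure D4:**
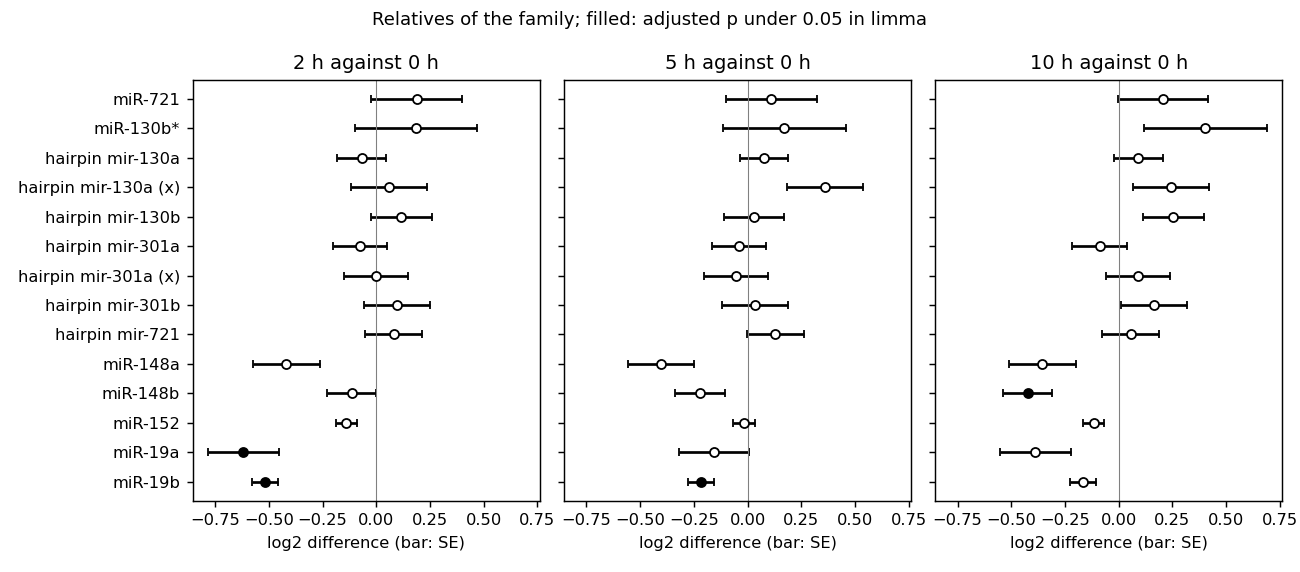
Fitted log2 difference from 0 h (horizontal axis, bars are the SE) at 2, 5 and 10 h of tunicamycin for the 9 probe sets closest to the family and the 5 seed relatives; "x" marks a further probe set of a hairpin. Filled points have a limma adjusted p under 0.05: miR-19a and miR-19b at 2 h, miR-19b at 5 h and miR-148b at 10 h, all below 0.

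The microRNAs tied to ER stress signalling give the setting in which the family's levels were read. Of a list of 14, none was higher and 3 were lower at 2 h (limma, Benjamini-Hochberg). Of all mature probe sets 7.39% were called higher and 5.86% lower at that time. At 5 h 1 was higher and none lower, beside 4.32% and 4.04% of all. At 10 h 4 were higher and 2 lower, beside 5.58% and 7.11% of all. Of the 4, miR-216b and miR-217 are of 1 cluster, and the 2 lower, miR-106b and miR-93, are of another. These calls are thus not independent of each other. The list was written with earlier results known, and the study reported on several of its microRNAs from these arrays. Their direction is therefore not independent evidence. The list's median difference was -0.01, -0.02 and -0.07 (log2). The list mixes microRNAs reported to rise under ER stress with others reported to fall, so its median has no set direction. MiR-96, miR-125b-5p, miR-25, miR-30c-2*, miR-204 and miR-211 were called at none of these times against 0 h. MiR-204 lay below the limit on all arrays, and miR-211 passed it on only 1, at 5 h. At 2 h, when miR-301a was lowest, miR-106b was 0.47 lower (adjusted p = 1.6e-05), miR-34a 0.41 lower (adjusted p = 1e-04) and miR-17 0.26 lower (adjusted p = 4.3e-05). MiR-34a is known as a p53 target, and miR-17 and miR-106b belong to related proliferation-linked clusters. That of miR-17 also holds miR-19a and miR-19b, so its 2 h call is not independent of theirs.

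At 10 h, when miR-130b was highest, miR-217 was 2.32 higher (adjusted p = 1e-06), miR-216b 1.90 higher (adjusted p = 8.3e-07), miR-708 1.07 higher (adjusted p = 3.5e-09) and miR-346 0.55 higher (adjusted p = 0.01), all on the log2 scale by limma. MiR-346 is known in human cells as an XBP1-induced repressor of TAP1. The 10 h difference of miR-130b, 0.67, lay between those of miR-346 and miR-708. That place is a description only, because miR-130b and the list were chosen with earlier results known. MiR-106b and miR-93 were 0.18 and 0.12 lower (adjusted p = 0.027 and 0.047), and these calls were ended by 7 and 16 of 23 alternative settings. The call of miR-346 was ended by 2, the methods' t-test and leaving out 10 h replicate 2, and the 5 h call of miR-708 by 6.

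The members' differences under other settings are given as values, which carry no weight as support because the family was chosen on these arrays. Over the 23 alternatives miR-130b at 10 h lay between 0.58 (quantile normalization) and 0.75 (arrays shifted to 1 median). With single arrays left out, miR-130b at 10 h ran from 0.61 to 0.72 and miR-301a at 2 h from -0.73 to -0.55. MiR-130b at 5 h ran from 0.18 to 0.29, and at 2 h from -0.20 to -0.07. The differences of miR-130a ran from -0.16 to -0.08 for 2 h, from 0.01 to 0.12 for 5 h and from 0.05 to 0.09 for 10 h. Those of miR-301a ran from -0.23 to -0.05 for 5 h and from -0.37 to -0.19 for 10 h.

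**Figure D5:**
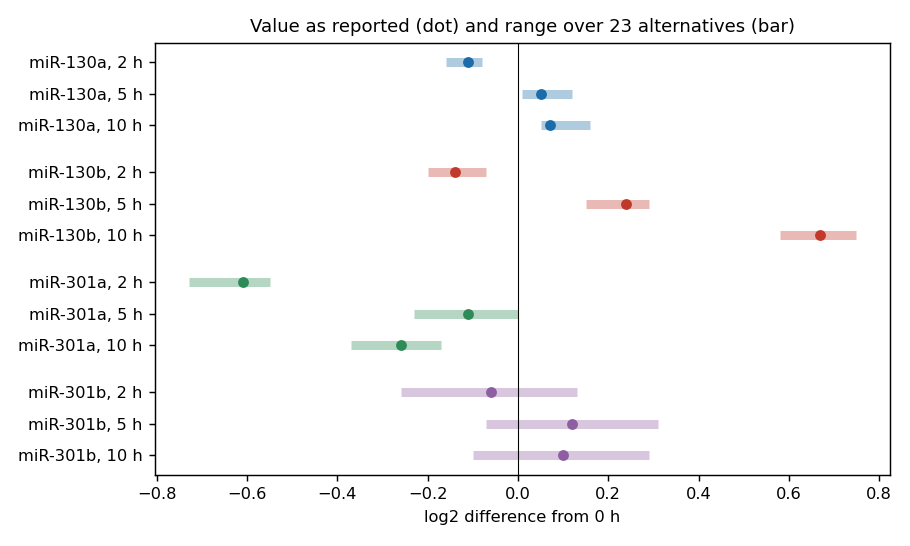
Log2 difference from 0 h (horizontal axis) of each member at 2, 5 and 10 h: points are the reported values, and bars run from the lowest to the highest value over 23 alternative settings. The bars of miR-301b span 0 at all 3 times, and those of miR-130b at 10 h run from 0.58 to 0.75.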

How the data were processed

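The RNA of mouse NIH3T3 cells was labelled and measured on GeneChip miRNA arrays. The values used are the log2 levels per probe set that the authors deposited, for which the submitters' notes name RMA with no version. A further table repeats them (largest difference 0) next to comparisons by the authors: means, ratios, fold changes, p-values, step-up values and variance statistics. None of these was used. GeneSpring, t-tests and an analysis of variance are named in the methods. For the array version, nothing is given in the sources used here.

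No further normalization was applied. The 717 mature probe sets (121 star strands) and, separately, the 690 hairpin probe sets were fitted with time as a factor of 4 levels in limma 3.58.1 (R 4.3.3; lmFit, eBayes with trend, two-sided, Benjamini-Hochberg, threshold 0.05), after tests on simulated data. The 5 remaining probe sets were left out of the fits. The number of arrays limits the precision, and no detection calls were used. Named were the 4 members, miR-721, star strands and hairpins of the members, the 2 lists and the 3 probe sets most like each member. The members and lists were chosen with earlier results of these data known. Alternatives were 2 scalings, 2 filters, other variance models and fits, the methods' t-test, a replicate block and leaving out arrays.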

Additional observations from a re-analysis of the deposited data

Results flagged for a closer look

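A member was flagged where all arrays of 2 treated times lay on opposite sides of its 0 h mean. Flags outside the family were limma calls of the difference between treated times. The rule for members did not flag miR-301a, although it was 0.50 higher at 5 h than at 2 h and these arrays did not overlap. For miR-130a every 2 h array lay below the 0 h mean and every 10 h array above it, and the difference between these times was 0.18 (log2). For miR-130b every 2 h array lay below the 0 h mean and every 5 h and 10 h array above it, with differences from 2 h of 0.38 at 5 h and 0.82 at 10 h. These differences are descriptions with no p-value, because the family was chosen with the values known, and whether the times differ was not tested independently of that choice.

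Outside the family, limma tested the difference between treated times directly. MiR-19b was 0.30 higher at 5 h than at 2 h (adjusted p = 0.0038) and 0.35 higher at 10 h than at 2 h (adjusted p = 0.001). MiR-17 was 0.16 and 0.22 higher at those times than at 2 h (adjusted p = 0.0028 and 0.00018), miR-34a 0.38 and 0.28 higher (adjusted p = 0.00021 and 0.0027), and miR-106b 0.41 and 0.29 higher (adjusted p = 5.1e-05 and 0.001). At 10 h miR-708 was 0.81 above 5 h and 0.90 above 2 h (adjusted p = 4.6e-07 and 6.4e-08). MiR-216b was 1.51 and 1.47 above those times (adjusted p = 2.3e-05 and 1.2e-05) and miR-217 1.89 and 2.15 (adjusted p = 2.3e-05 and 2.6e-06). The later arrays lay above the earlier ones on 3 of 3 arrays in each case.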

How the results depend on the processing

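The members' calls were part of what was known when the family was chosen, so their behaviour over settings supports nothing. The methods' t-test ended the 2 h call of miR-301a (0 members) and the calls of miR-301a and miR-130b from 2 h to 5 h, a 5 h call of miR-130b was added by either filter (1 member) or without the second 2 h array, and a 10 h call of miR-301a without the third 0 h array. With each array shifted to 1 median, miR-130a was 0.16 at 10 h. The calls over all mature probe sets at 2, 5 and 10 h were 95, 60 and 91, split 53 higher and 42 lower, 31 and 29, and 40 and 51. They were 37, 22 and 56 with arrays shifted to 1 median (7 and 30, 11 and 11, 38 and 18), 53, 32 and 54 without the trend, 36, 10 and 40 by the methods' t-test (unadjusted 147, 110 and 153), 27 at 5 h with only the compared arrays fitted, and 63 and 31 at 2 and 5 h without the second 0 h and 5 h arrays, a setting added after the data were seen. With 1 array left out they ran from 58 to 102, 30 to 65 and 70 to 97. Single arrays that moved these counts most were, for 2 h, 0 h replicate 2 (58 calls left) and 2 h replicates 1 and 3 (61 each), and, for 5 h, 0 h replicate 1 (33), 5 h replicate 1 (32) and 5 h replicate 2 (30).

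Calls among the 5 seed relatives (2, 1 and 1 at 2, 5 and 10 h) were 0 at 5 and 10 h with arrays shifted to 1 median, 0 at 10 h under quantile normalization, 1, 0 and 0 with mature and hairpin probe sets together, without the trend or by the t-test, 4, 2 and 2 with array weights, 0 at 5 h with only the compared arrays, and 0 at 5 h and 2 at 10 h without both deviating arrays. With 1 array left out they ran from 1 to 3, 0 to 1 and 0 to 3. They were 1 at 2 h without 0 h replicate 1 or 2 h replicate 2 or 3, 0 at 5 h without 0 h replicate 1, 2 h replicate 1 or 5 h replicate 1 or 2, and at 10 h 0 without 0 h replicate 1 or 10 h replicate 3, 2 without 0 h replicate 2 or 3, and 3 without 10 h replicate 1. Calls among the 14 ER stress microRNAs (3, 1 and 6) were 0 at 5 h with either scaling, without the trend, by the t-test (3 at 10 h) and without both deviating arrays, 5 and 2 at 2 and 5 h with either filter, and 2 at 5 h with array weights. With 1 array left out they ran from 3 to 4, 0 to 2 and 3 to 6, with 0 at 5 h without the second 5 h array, 2 at 5 h without the first 10 h array and 3 at 10 h without the second 10 h array. Members ran from 1 to 1, 0 to 1 and 1 to 2. The cause of these changes was not tested.

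Replicate numbers did not pair the arrays across all times: same-numbered arrays had deviations correlated from -0.207 to 0.601, other pairs from -0.495 to 0.426. The highest, 0.601, was between replicate 2 of 0 h and replicate 2 of 5 h, the arrays that stood apart. Replicates 1 and 3 of 0 h had an r of 0.192 to 0.426 with replicates 1 and 3 of 5 h. With replicate 2 of 5 h their r was -0.495 and -0.434. The deviations within a time sum to 0, so these r are not independent of the 0.601. The 0 h and 5 h arrays thus shared a pattern of deviation, which the main fit treated as independent. Its cause was not tested. With the replicate number as a block the calls were 76, 45 and 82, and 0 seed relatives at 5 h. MiR-301b, miR-130b* and the hairpins lay near background, where 3 arrays cannot show small differences.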
